A study of Mus musculus with 17 samples.

Results

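The cytosolic heat shock genes described here are 9 of the 23284 genes in the deposited count table: Hspa1a, Hspa1b, Hspa8, Dnajb1, Dnaja1, Hsph1, Hsp90aa1, Hsp90ab1 and Hspb1. They were chosen by name, and all 9 were found. Transcripts were counted by Drop-seq, which tags each captured molecule with the barcode of its cell and a unique molecular identifier (UMI), in dissociated hypothalamus of B6D2F1 mice (C57BL6 female crossed with DBA2 male). The study set 3 mice deprived of food for 24 hours, sequenced in 8 libraries, against 5 normally fed mice in 9 libraries. The levels below answer which hypothalamic cells carried these transcripts, and the feeding comparison asks whether they differed after food deprivation.

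Heat shock proteins are molecular chaperones. HSP70 proteins bind unfolded stretches of client proteins, J-domain cochaperones deliver the clients and start ATP hydrolysis, nucleotide exchange factors reset the cycle, and HSP90 takes over clients such as kinases and steroid receptors. Small heat shock proteins hold unfolding proteins without using ATP. When unfolded proteins accumulate, heat shock factor 1 forms trimers and binds heat shock elements, repeats of NGAAN in alternating orientation, in front of these genes. Hspa8 and Hsp90ab1 are made constantly in most cells, whereas Hspa1a and Hspa1b are known for strong induction, and Hsp90aa1 is the more inducible HSP90 form. Tissue dissociation is known to induce some of these genes; every mouse here was dissociated, and its part in the levels was not tested.

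The start-site regions of 5 members hold facing repeats of the kind that the heat shock factor reads. Windows of 250 bases before and 50 after the start site were given for 6 of the 9 members by RefSeq on build GRCm38.p6; Hspa8, Hsp90aa1 and Hsp90ab1 were not among them. The 150 bases before the start site are shown 5′ to 3′ on the strand of the gene, with capitals marking pairs of facing repeats, GAANNTTC or TTCNNGAA. The counts rest on mm9, so these coordinates locate the sequences and were not joined to the counts.
Hspa1a, chr17:34972157-34972306, minus strand: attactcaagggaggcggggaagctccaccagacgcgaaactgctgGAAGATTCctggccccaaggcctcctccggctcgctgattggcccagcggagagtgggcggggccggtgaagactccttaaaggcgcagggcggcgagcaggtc
Hspa1b, chr17:34959239-34959388, minus strand: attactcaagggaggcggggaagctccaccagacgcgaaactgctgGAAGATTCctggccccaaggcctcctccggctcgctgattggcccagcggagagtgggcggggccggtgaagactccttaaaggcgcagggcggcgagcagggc
Hsph1, chr5:149636337-149636486, minus strand: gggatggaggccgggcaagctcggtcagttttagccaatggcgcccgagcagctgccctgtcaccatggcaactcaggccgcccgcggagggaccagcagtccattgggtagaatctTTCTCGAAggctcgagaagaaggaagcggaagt
Hsph1, after the start site, chr5:149636287-149636304, minus strand: cagaTTCTGGAAAGTTCt
Hspb1, chr5:135887769-135887918, plus strand: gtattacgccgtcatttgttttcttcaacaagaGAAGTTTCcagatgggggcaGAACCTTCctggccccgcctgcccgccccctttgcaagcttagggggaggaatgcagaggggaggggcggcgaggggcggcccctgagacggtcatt
Dnaja1, chr4:40722318-40722467, plus strand: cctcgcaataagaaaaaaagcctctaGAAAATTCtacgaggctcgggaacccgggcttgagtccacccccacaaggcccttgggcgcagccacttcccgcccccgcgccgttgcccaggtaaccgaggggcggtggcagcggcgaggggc

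The sequences differ in how many such pairs they hold. In the full window of 300 bases, Hsph1 held 3 pairs, the last 2 of which overlap, Hspb1 held 2, and Hspa1a, Hspa1b and Dnaja1 held 1. Dnaja1 has 3 windows: the first, shown above, held the pair, and windows 2 and 3 held 0. Both searched patterns read the same on either strand. Among all 32851 mouse windows of this length, 15.06% held at least 1 pair and 1.96% held 2 or more. Neither window of Dnajb1 matched, which says only that these letters are not there, and a match is a description and not a binding site. Hspa1a and Hspa1b were identical at 149 of the 150 bases shown. These neighbours on chromosome 17 are near-identical in their coding parts as well, while the last 300 bases of their transcripts, near the end that Drop-seq reads, matched at 50.15% of aligned positions. How the authors assigned reads common to both is not given in the sources used here, so the split of counts between Hspa1a and Hspa1b is uncertain.

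The 14276 annotated cells that could be joined to a library held 46904254 UMIs, of which 320697 came from the 9 genes. A mouse contributed between 290861 UMIs in 129 cells and 12570644 UMIs in 3639 cells, with a median of 1444 to 2389 UMIs in a cell. The replicate is the mouse. Doublet calling was not part of the steps here, and any removal of doublets upstream is not given in the sources used here. Of 18167 distinct barcodes, 120 occurred in 2 or more libraries. Cell classes follow the deposited cluster names (GABA and Glu neurons, and the glial and vascular names MO, IMO, OPC, Astro, Tany, Ependy, Epith, Micro and Macro). Of the joined cells, 2309 carried the name zothers and belong to no class, and they count in values given for all annotated cells. The names SCO and POPC, with at least 20 cells in 1 mouse each, were left out of the classes compared. So was Hista, whose cells count in all neurons. Marker genes were highest in the class of their name, except that the precursor list of OPC was highest in IMO. MO carries genes of myelinating oligodendrocytes, IMO those of newly formed ones, Tany those of tanycytes, and Epith those of endothelial cells. Libraries fall into 8 with over 50 CPM of Gapdh (CPM, the UMIs of a gene scaled to a common library total) and 9 below it, called retained and depleted. All libraries of food-deprived replicate 3 and of normal replicates 1, 2 and 5 are retained, all of normal replicate 3 are depleted, and food-deprived replicates 1 and 2 and normal replicate 4 have libraries of both types. The labels name 5 batches: batch 1 holds food-deprived replicate 1 and normal replicate 3, batch 2 holds food-deprived replicate 2 and normal replicate 4, and the other batches hold 1 feeding state each.

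The inducible HSP70 genes were most abundant in vascular and immune classes. Class levels are a gene's UMIs scaled to CPM of all UMIs of the class in a mouse, averaged over all mice with at least 20 cells of the class, both feeding states together. Hspa1a averaged 1186 ± 551 CPM in Epith (SD, n = 6), 887 ± 473 CPM in Macro (n = 3) and 322.5 ± 105 CPM in Micro (n = 5). It stood at 193 ± 113 CPM in GABA (n = 7), 103 ± 59.6 CPM in Glu (n = 6) and 82.1 ± 69.6 CPM in OPC (n = 7), the lowest of the 11 classes. Hspa1b followed with 122 ± 104 CPM in Macro, 104 ± 96.1 CPM in Epith and under 10 CPM in GABA, Glu, MO, OPC and Astro. Both vascular clusters carried Hspa1a, with 1052 ± 482 CPM in Epith1 and 1406 ± 696 CPM in Epith2 (n = 6 each). For neither gene did neighbours in this order differ by more than their summed SDs, so the ranking of adjacent classes is not resolved.

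The small heat shock protein gene Hspb1, whose product also binds actin, was the member with the narrowest distribution. Hspb1 averaged 1544 ± 354 CPM in Epith (n = 6), 386 ± 277 CPM in Macro (n = 3) and 248 ± 19.7 CPM in Tany (n = 6). In MO it stood at 2.70 ± 2.33 CPM (n = 8). The steps from Epith to Macro and from Tany to Micro, which had 130 ± 98.1 CPM, exceeded the summed SDs, the only such steps between neighbouring classes for any of the 9 genes. Epith1 and Epith2 were alike, at 1519 ± 466 and 1531 ± 230 CPM. The plot of levels by class shows this range against the flatter profile of Hsp90ab1.

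**Figure D1:**
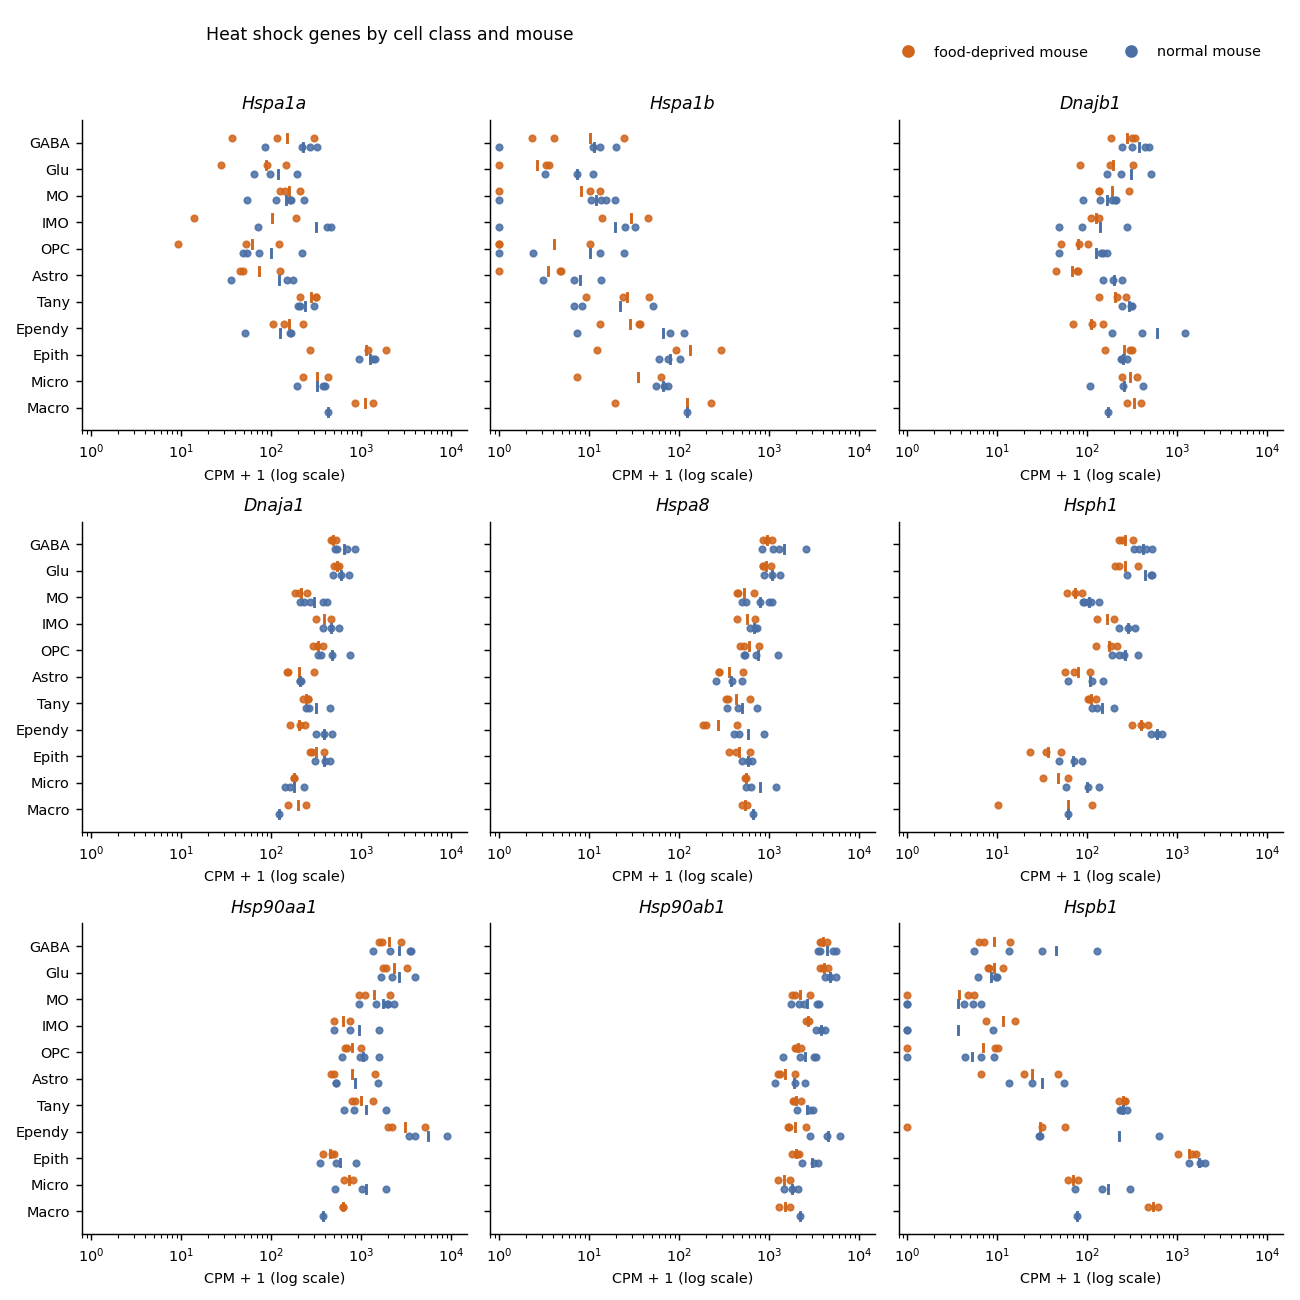
Levels of the 9 genes in 11 cell classes, in CPM plus 1 on a log axis, one point per mouse with at least 20 cells of the class (food-deprived above normal in each row) and a bar at each group mean. Hspb1 runs from 2.70 CPM in MO to 1544 CPM in Epith on average, while Hsp90ab1 stays between 1658 and 4426 CPM.

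Shares of cells gave the same picture for Hspb1 at equal depth. After each cell was thinned to 1000 UMIs, 65.6% ± 7.79 of Epith cells held an Hspb1 UMI, against 0.23% ± 0.27 of MO cells. Median depths per mouse were 1350 to 1860 UMIs in Epith and 1455 to 2433 UMIs in MO, and unthinned shares were 80.6% and 0.57%. MO had the lowest mean Hspb1 level in CPM of the classes compared above, but not the lowest share: in IMO 0% of thinned cells held it (n = 4 mice). The part of free RNA in these shares was not tested. Hspa1a was found in 40.6% ± 13.8 of thinned Epith cells and 10.2% ± 4.19 of MO cells. Over all annotated cells, counts of Hspa1a and Hspb1 were concentrated: the 5% of cells with the most UMIs of the gene, 714 cells, held 66.28% of all Hspa1a UMIs and 81.0% of all Hspb1 UMIs, but 29.53% of Hsp90ab1 UMIs.

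Cells with Hspa1a held Hspa1b, Dnajb1 and Hspb1 more often than cells without it. Among 12839 thinned cells, those without a class included, 1725 held an Hspa1a UMI. Hspb1 was present in 24.8% of these and 5.26% of the other cells, Dnajb1 in 24.9% and 12.7%, and Hspa1b in 8.75% and 0.70%. For Hspa8 the shares were 42.3% and 43.9%, for Hsp90ab1 88.0% and 86.7%, and for Hsph1 12.2% and 14.1%. Cells of a class share their libraries and the classes differ in level, so these shares are a description over all cells.

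Dnajb1, a J-domain partner of HSP70 that heat induces, was spread more evenly. Dnajb1 averaged 355 ± 433 CPM in Ependy (n = 6), 330 ± 105 CPM in GABA (n = 7) and 105 ± 47.9 CPM in OPC (n = 7). Without the 24 cells of over 30000 UMIs its ependymal mean was 223 ± 156 CPM, below GABA. Dnajb1 was found in 16.3% ± 12.1 of thinned ependymal cells and 17.2% ± 4.01 of thinned GABA cells. Dnaja1, a J-domain protein made constantly, was highest in neurons, with 582 ± 147 CPM in GABA, 570 ± 86.9 CPM in Glu and 173 ± 62.1 CPM in Macro. In GABA, 39.1% ± 6.12 of thinned cells held it.

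Hsph1, the HSP110 nucleotide exchange factor of HSP70, had its high levels in ependymal cells and neurons. Hsph1 averaged 493 ± 134 CPM in Ependy (n = 6), 351 ± 106 CPM in GABA (n = 7) and 350 ± 141 CPM in Glu (n = 6). It averaged 51.8 ± 23.6 CPM in Epith, the class that led for Hspa1a, so that Hsph1 and Hspa1a stood at opposite ends there. Thinned shares were 34.5% ± 9.27 in Ependy and 3.88% ± 1.25 in Epith. Among 21 neuronal clusters with at least 3 mice, Hsph1 ranged from 156 CPM in GABA1 to 727 ± 68.3 CPM in Glu11 (n = 3). Glu11 had the lowest Dnajb1 level of these clusters, 81.2 CPM.

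Of the classes compared, Hspa8 and the HSP90 genes Hsp90aa1 and Hsp90ab1 were highest in neurons or ependymal cells. Outside these classes, Hsp90ab1 stood higher still in SCO, at 6549 CPM in 32 cells of 1 mouse. Hspa8, which also uncoats clathrin vesicles, averaged 1244 ± 618 CPM in GABA (n = 7), 1000 ± 179 CPM in Glu (n = 6) and 369 ± 116 CPM in Astro (n = 6). Hsp90aa1 averaged 4289 ± 2595 CPM in Ependy, 2459 ± 938 CPM in Glu, 2372 ± 921 CPM in GABA and 520 ± 188 CPM in Epith. Hsp90ab1 averaged 4426 ± 666 CPM in Glu, 4217 ± 814 CPM in GABA and 1658 ± 327 CPM in Micro. At 1000 UMIs, 60.8% ± 11.1 of GABA cells held Hspa8, 92.4% ± 6.72 of ependymal cells Hsp90aa1 and 96.6% ± 1.67 of Glu cells Hsp90ab1. No neighbouring classes differed by more than their summed SDs for any of the 3 genes. Within neurons, GABA15 led the 21 clusters for Dnajb1 (643 CPM), Hspa8 (1832 CPM), Hsp90aa1 (3148 ± 1251 CPM), Hsp90ab1 (5591 CPM) and Hspb1 (92.0 CPM; n = 5 mice).

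Some members differed between the library types more than others, which bears on their levels above. In the 3 mice with both types, Hspa8 was 2.29, 2.00 and 1.94 times as high in retained as in depleted libraries (food-deprived replicates 1 and 2 and normal replicate 4). The ratios were 2.05, 1.54 and 1.23 for Hsp90aa1 and 1.38, 1.49 and 1.16 for Dnaja1. For Hsp90ab1 they were 1.11, 1.03 and 1.10, and for Hsph1 0.82, 1.00 and 1.05. Hspa1a had 0.72, 0.93 and 1.00, Hspa1b 0.59, 0.66 and 1.22, Dnajb1 0.79, 0.85 and 1.22, and Hspb1 1.05, 1.07 and 0.80. Gapdh, which defined the types, differed by 122, 96.5 and 29.7 times. GABA neurons had 1602 ± 555 CPM of Hspa8 in retained libraries (n = 6 mice) and 769 ± 92.8 CPM in depleted ones (n = 4). Hsp90aa1 in Ependy stood at 6028 ± 2655 CPM in retained and 2424 ± 899 CPM in depleted libraries (n = 3 each). Some mice have libraries of 1 type only, so the mice behind these retained and depleted means differ, and the ratios within the 3 mice are the like-for-like values. How reads were assigned in each type was not tested.

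**Figure D2:**
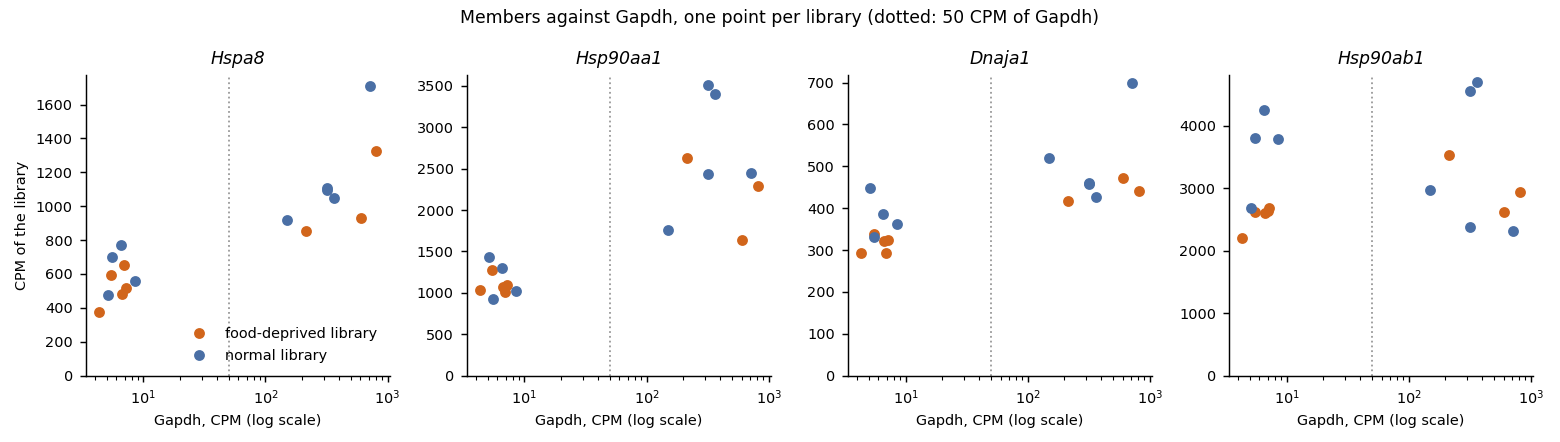
CPM of Hspa8, Hsp90aa1, Dnaja1 and Hsp90ab1 in each of the 17 libraries against Gapdh CPM on a log axis, colored by feeding state, with a dotted line at 50 CPM of Gapdh. Hspa8 and Hsp90aa1 are higher right of the line, with within-mouse ratios of 1.94 to 2.29 and 1.23 to 2.05, and Hsp90ab1 is level across it.

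Patterns over clusters separated the same members. Likeness is the Pearson correlation of log2(CPM + 10) over the 45 clusters with at least 1 mouse of 5 cells, among 7847 genes; the clusters share mice and libraries. Hspb1 was most like Tspo (r = 0.886), Gbp7 and Trim47. Hspa1a was most like Cd2ap (r = 0.690), Jun (0.681), an immediate early gene, and Pnpla2, and Hspa1b most like Tmem123, Gbp7 and Ctsh. Dnajb1 was most like Dnajb4 (r = 0.667), Egr1 and Hspa1a. Dnaja1 was most like Cct8 (r = 0.897), a subunit of the TRiC chaperonin that folds actin and tubulin, Dctn3 and Nedd8. Hsp90ab1 was most like Srp14 (r = 0.874), Nop10 and Tceb2, Hspa8 most like Eef1g, Zcchc17 and Srp14, Hsp90aa1 most like Arhgdig, Pebp1 and Kif3a, and Hsph1 most like Chid1, N6amt1 and Slc25a14. Among the members, r was 0.689 between Hspa1a and Hspa1b, 0.742 between Hspa1b and Hspb1 and 0.749 between Dnaja1 and Hsp90ab1. Over mice within classes (65 mouse and class points, 8226 genes), Hsp90aa1 was most like Rpl18 (r = 0.894), Rpl3 and Ptma. Whether these genes move with library type was not tested. Over the same points Hsp90ab1 was most like Chchd2, Calr and Hsp90b1, and Hsph1 most like Cacybp (0.587), an HSP90 partner, Golga4 and St13.

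In the feeding comparison, no member passed the test, although most fold changes pointed down. The summed counts of each class in each mouse were tested with edgeR's quasi-likelihood F test, adjusted over all genes of the class by the Benjamini-Hochberg method at 0.05. It called 0 of 9 members, and 0% of all genes, in each of 10 classes that share no cells, in all neurons and in all annotated cells. DESeq2 called 1 gene in MO, which is no member, and none in the other classes. At an unadjusted p under 0.05, 132 to 320 genes per class passed in edgeR. Of the 90 member and class pairs, 79 passed the filter on low counts: 69 log2 fold changes of food-deprived over normal were below 0 and 10 above, with a median of -0.39. At an unadjusted p under 0.05 there were 16 pairs lower and 0 higher, and in 10 pairs every food-deprived mouse stood under every normal mouse, in 0 over. The groups did not overlap in that direction for 1.22% to 10.5% of all genes in the 5 classes that hold these pairs. At the unadjusted threshold, 1.1% to 2.54% of all genes were lower in the classes that hold the 16 pairs. Adjusted p-values (edgeR) lay between 0.952 and 1.00. The same mice serve in every class, so the pairs are not independent. Library type is not balanced between the states. Food-deprived replicates 1 and 2 had 321 and 862 cells in retained but 3318 and 2063 in depleted libraries. Food-deprived replicate 3 and normal replicates 1, 2 and 5 are retained only, and normal replicate 3 is depleted only. Hspa8, Hsp90aa1 and Dnaja1, higher in retained libraries, were below 0 in 10, 10 and 9 of 10 classes. Hsph1 and Hsp90ab1 (ratios 0.82 to 1.11) were below 0 in all 10. The part of library type was not tested.

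In 5 of the classes every tested member was below 0 with feeding state as the only term. In GABA neurons 9 of 9 were below 0 (median -0.45), beside 50.8% of all genes, and in Glu 7 of 7 tested (median -0.24), beside 49.6%. In all neurons it was 9 of 9 (median -0.50), beside 50%, and in all annotated cells 8 of 9 (median -0.42), beside 51.9%. In OPC 7 of 7 were below 0 (median -0.43), beside 49.9% of genes, in IMO 7 of 7 (median -0.52), beside 50.4%, and in Astro 7 of 7 (median -0.30), beside 50.3%. The other classes were mixed. The count was 6 of 8 in MO (median -0.38; all genes 50.6%), 6 of 8 in Tany (median -0.28; 49.3%), 7 of 8 in Ependy (median -1.06; 50.2%), 7 of 9 in Epith (median -0.35; 50.9%) and 6 of 9 in Micro (median -0.35; 48.3%). The median over all genes lay between -0.01 and 0.01 in every class.

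With batch as a block the neuronal and vascular medians lay nearer 0. The members' median was then -0.08 in GABA (7 of 9 below 0), -0.16 in Glu (6 of 7), -0.13 in all neurons (7 of 9) and -0.23 in all annotated cells (7 of 9). It was 0.0017 in Epith (4 of 9) and -0.04 in Micro (6 of 9). In MO it was -0.29 (8 of 8), in IMO -0.48 (7 of 7), in OPC -0.42 (7 of 7), in Astro -0.27 (7 of 7), in Tany -0.28 (5 of 8) and in Ependy -1.31 (7 of 8). The astrocyte count rested on single mice: without food-deprived replicate 1 or replicate 2 it was 4 of 7, with medians of -0.18 and -0.23. With at least 50 cells per mouse, which left out normal replicate 5, it was 6 of 8 (median -0.11), and retained libraries alone gave 3 of 5.

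**Figure D3:**
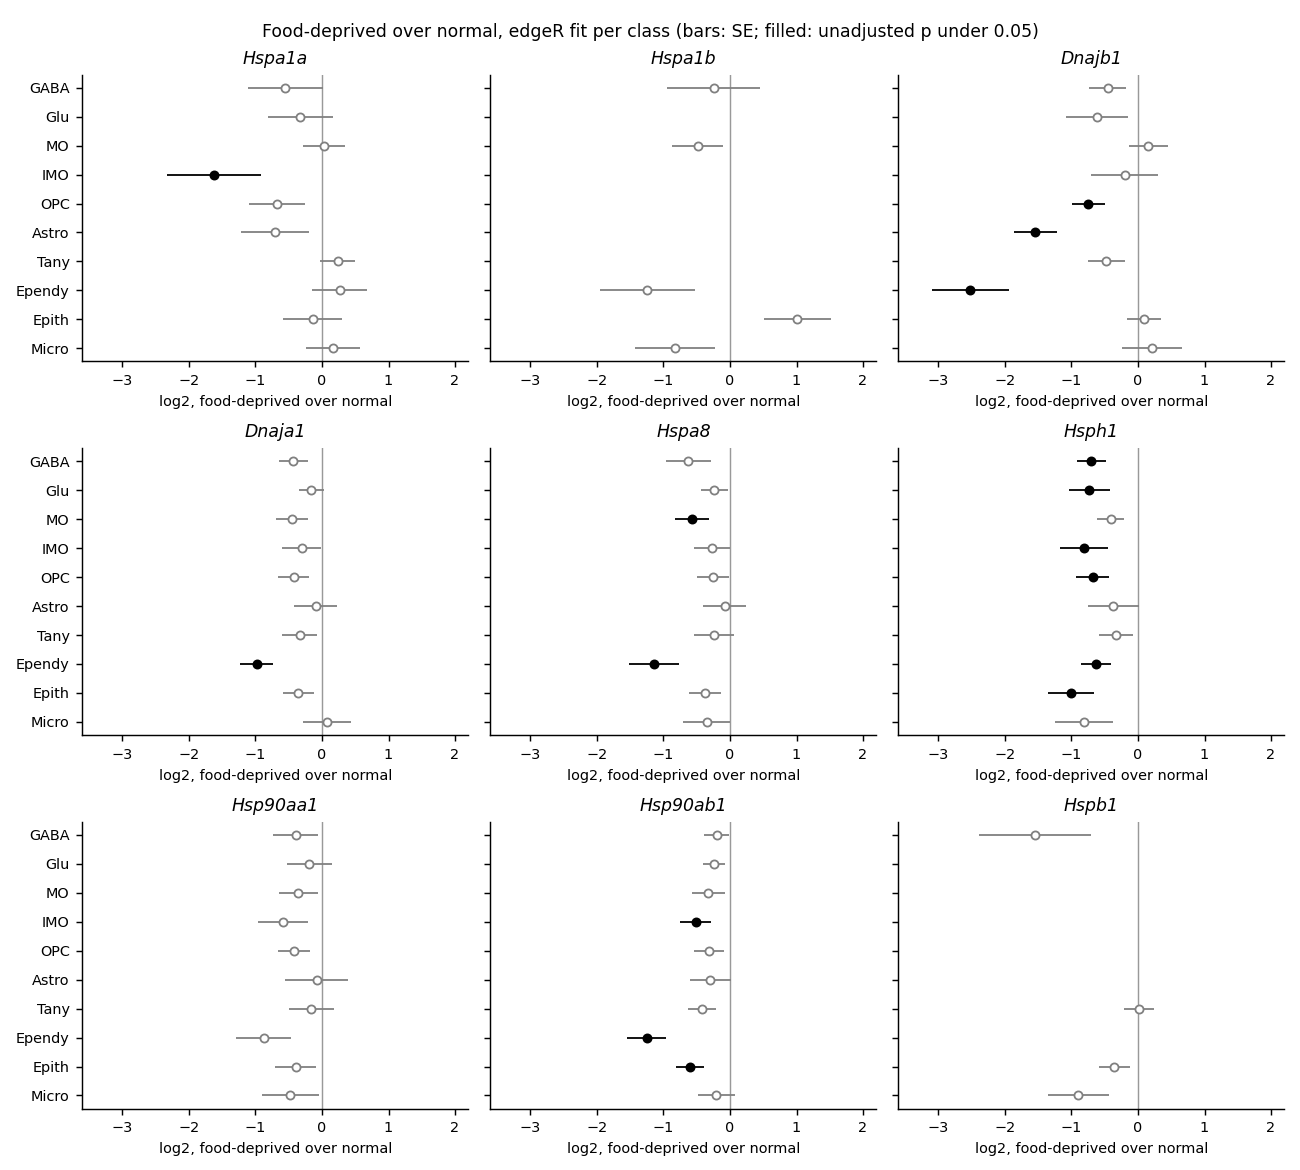
Log2 fold change of food-deprived over normal for each member and class that passed the filter on low counts, from edgeR, with bars of 1 SE; filled points have an unadjusted p under 0.05 and no point passed the adjusted threshold. All 10 points of Hsph1 lie left of 0, from -1.01 to -0.33, while 6 of 10 points of Hspa1a do.

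Hsph1 was the member with the most even direction. Its log2 fold changes ran from -1.01 to -0.33 over the 10 classes, with a median of -0.69, and 6 had an unadjusted p under 0.05. Values here and below are CPM scaled with TMM factors, given for each mouse. In GABA neurons Hsph1 stood at 239, 224 and 330 CPM in the food-deprived mice and at 402.5, 326, 506 and 474 CPM in normal replicates 2 to 5 (log2 -0.70 ± 0.22 SE). One food-deprived value lay above the lowest normal value, so the groups overlapped by 1 mouse; 1.1% of all genes were lower at this unadjusted threshold. In Glu neurons it had 202, 228 and 385 CPM in food-deprived mice, against 275, 507 and 562 CPM in normal replicates 3 to 5 (-0.73 ± 0.31, with 1.93% of genes lower at the threshold), and in all neurons the fold was -0.65 ± 0.25 (1.2% of genes).

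Of the oligodendrocyte classes, the Hsph1 groups overlapped in OPC and not in MO or IMO. In OPC it had 127, 215 and 189 CPM in food-deprived mice, against 180, 230, 369 and 276 CPM in normal replicates 2 to 5 (log2 -0.68 ± 0.25; 1.63% of genes lower at the unadjusted threshold). With batch as a block, which sets the mice of batches 1 and 2 against each other, OPC Hsph1 gave -0.82 ± 0.19 with an adjusted p of 0.00762 (edgeR), the only member called by that fit, beside 0.194% of all genes. In MO it had 72.5, 89.5 and 60.2 CPM in food-deprived mice and 132, 99.0, 110, 93.0 and 99.3 CPM in normal mice (log2 -0.41 ± 0.20): the groups did not overlap, which held for 1.22% of genes. The nearest MO mice were 89.5 and 93.0 CPM, so the separation is narrow, and MO Hsph1 had an unadjusted p of 0.063 (edgeR). In IMO it had 236 and 156 CPM in food-deprived mice and 268, 417 and 356 CPM in normal mice (-0.81 ± 0.36; 2.54% of genes lower at the unadjusted threshold, 10.5% with no overlap).

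The vascular and ependymal classes did not overlap for Hsph1 either. In Epith it stood at 51.4, 23.4 and 34.6 CPM in food-deprived mice and at 89.5, 71.4 and 52.6 CPM in normal ones (log2 -1.01 ± 0.35). The nearest mice were 51.4 and 52.6 CPM, so the separation is narrow, and normal replicate 5 rests on 11 UMIs. In Epith 1.72% of genes were lower at the unadjusted threshold and 4.95% did not overlap. Without food-deprived replicate 2 the Epith fold was -0.63 and without food-deprived replicate 1 it was -1.55. In Ependy it stood at 429, 345 and 514 CPM in food-deprived mice, against 774, 647 and 575 CPM in normal ones (-0.63 ± 0.22). There 2.14% of genes were lower at the unadjusted threshold and 5.55% did not overlap.

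Within the shared batches the direction of Hsph1 was the same in every class. Food-deprived replicate 1 was below normal replicate 3, and food-deprived replicate 2 below normal replicate 4, in 10 of 10 classes. Of the 2259 genes tested in all 10 classes, 4 did this (0.177%): Hsph1, Hspa5 and Hsp90b1, chaperones of the endoplasmic reticulum, and Ube2r2, a ubiquitin conjugating enzyme; these names were taken after their values were seen. The same 4 mice stand behind all classes, so this is a property of 2 pairs of mice. Hsp90ab1 and Dnaja1 were lower in both batches in 8 classes each, Hspa8 and Dnajb1 in 5, Hsp90aa1 in 4 and Hspa1a in 0. Over all mice, Hsph1, Hspa8, Hsp90aa1 and Hsp90ab1 had a log2 fold change below 0 in every class, as did 3.14% of the 2259 genes.

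**Figure D4:**
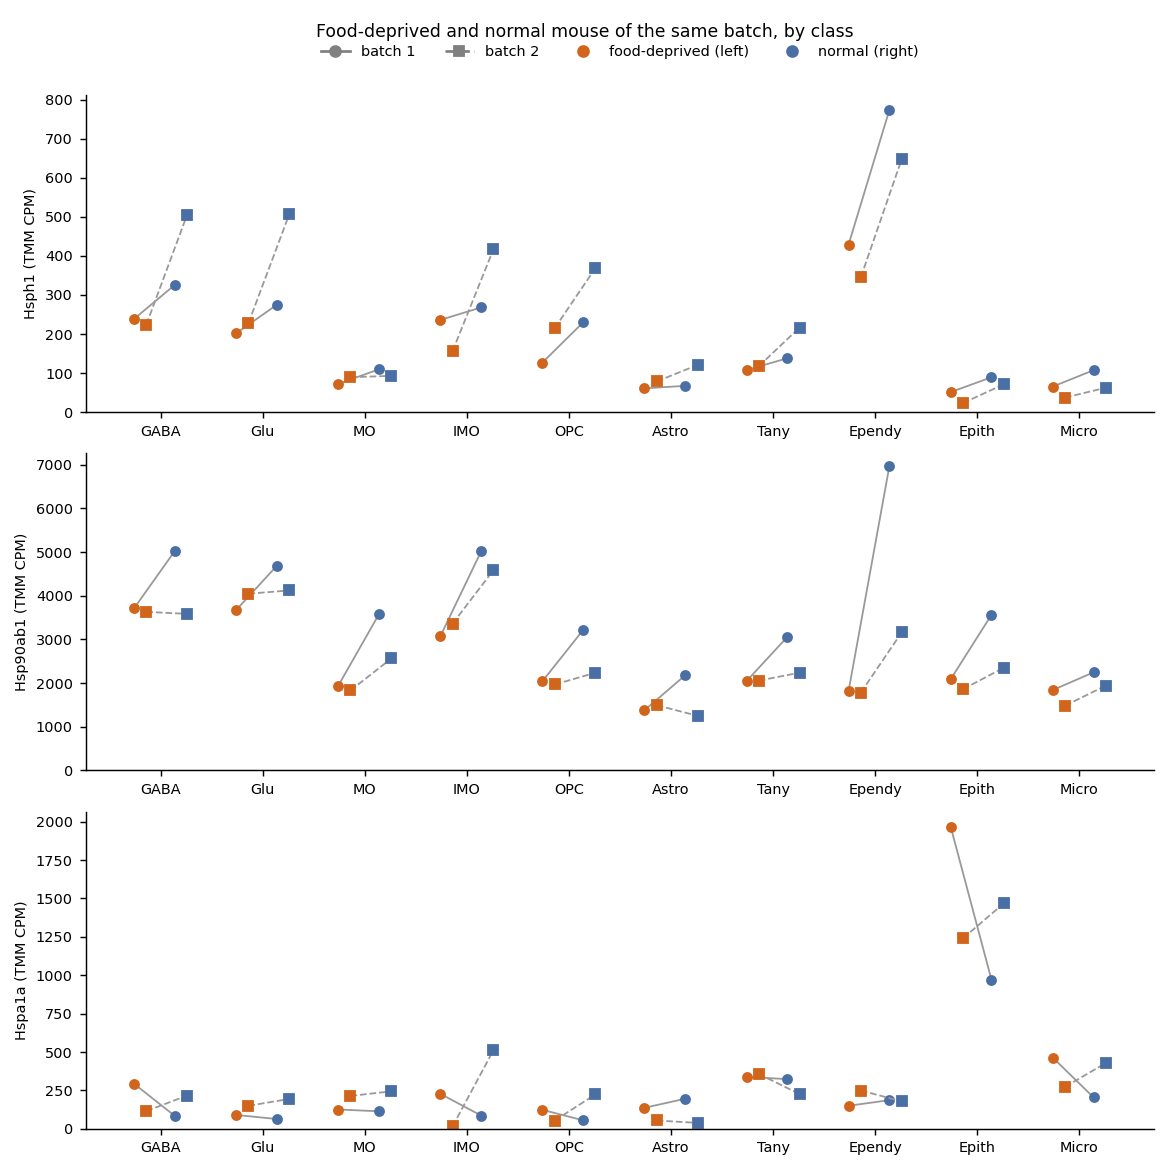
TMM-scaled CPM of Hsph1, Hsp90ab1 and Hspa1a in the food-deprived (left) and normal (right) mouse of batch 1 (circles, solid lines) and batch 2 (squares, dashed lines), by class. Hsph1 lines go up to the normal mouse in 10 of 10 classes, whereas the batches split in 9 of 10 classes for Hspa1a.

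Hspa1a, the strongly inducible member, showed no common direction. It was below 0 in 6 of 10 classes, and in 9 classes the shared batches went opposite ways. In Epith, where it was most abundant, it had 1967.5, 1240.5 and 277 CPM in food-deprived mice and 970, 1468 and 1506.5 CPM in normal mice. The food-deprived mice spanned the normal range on both sides. In IMO it had 227.5 and 15.6 CPM in food-deprived mice and 86.2, 511 and 574 CPM in normal mice (log2 -1.63 ± 0.70). That value turned on single mice: it was -0.68 without food-deprived replicate 2, and -4.43 with an adjusted p of 1.27e-04 (edgeR; 0.0854% of genes called) without replicate 1, where the spread is taken from the normal mice and assumed for the 1 food-deprived mouse left. Hspa1b was tested in 5 classes and was below 0 in 4, and Hspb1 was tested in 4 and below 0 in 3.

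Depleted libraries alone, with batch as block, gave calls in both directions. This restricts the comparison to batches 1 and 2, with 1 mouse of each state in each. The spread is then taken from few mice and from what edgeR shares over genes. The p-values are adjusted over all genes (edgeR). Hspa1a was higher in food-deprived GABA neurons (log2 0.86 ± 0.21, adjusted p = 0.0224) and Hsph1 lower (-0.74 ± 0.18, adjusted p = 0.0169), with 0.233% of genes called. Hspa1b was higher in Epith (1.34 ± 0.28, adjusted p = 0.00483; 0.14% of genes). Hsp90ab1 was lower in MO (-0.67 ± 0.13, adjusted p = 0.0177; 0.399%), Hsph1 in OPC (-0.77 ± 0.19, adjusted p = 0.0440; 0.164%) and Dnajb1 in Astro (-1.63 ± 0.28, adjusted p = 0.0311; 0.114%). In the comparison of all libraries, Hspa1a in GABA stood at 293, 115 and 37.0 CPM in food-deprived mice and at 344, 83.1, 216 and 290 CPM in normal mice (log2 -0.55 ± 0.57), and the groups overlapped. The batches split, with 293 CPM in food-deprived replicate 1 against 83.1 CPM in normal replicate 3 of batch 1, and 115 CPM in food-deprived replicate 2 against 216 CPM in normal replicate 4 of batch 2. For Hspa1b in Epith over all libraries, food-deprived replicate 1 had 298 CPM against 60.2 CPM in normal replicate 3, and food-deprived replicate 2 had 94.8 CPM against 104 CPM in normal replicate 4.

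Dnajb1 separated the groups in astrocytes. In Astro it had 84.1, 87.1 and 47.8 CPM in food-deprived mice, against 272, 210 and 161 CPM in normal mice (log2 -1.54 ± 0.32). No food-deprived mouse reached the lowest normal value; 1.85% of genes were lower at the unadjusted threshold in Astro and 4.33% did not overlap. The fold stayed between -1.66 and -1.31 when any 1 mouse was left out. With no filter on low counts it was called (-1.48 ± 0.36, adjusted p = 0.0355, edgeR; 0.119% of genes), but not when cells of over 30000 UMIs were also left out (adjusted p = 0.0939). In OPC, Dnajb1 had 104, 82.5 and 51.5 CPM in food-deprived mice, against 45.1, 154, 145 and 174 CPM in normal mice (-0.75 ± 0.25): all but 1 normal mouse were above the food-deprived ones.

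Ependymal cells, the ciliated lining of the ventricle, had the lowest median. Dnajb1 had 74.9, 164 and 123 CPM in food-deprived mice, against 1365, 446.5 and 211 CPM in normal mice (log2 -2.52 ± 0.58). Hsp90ab1 had 1823, 1784 and 2757 CPM in food-deprived mice and 6972, 3161 and 4976 CPM in normal mice (-1.25 ± 0.29). Dnaja1 had 227.5, 181 and 255 CPM in food-deprived mice, against 531, 429 and 357 CPM in normal mice (-0.98 ± 0.25). For these 3 genes and Hsph1 every food-deprived mouse was below every normal mouse. In Ependy 2.14% of all genes were lower at the unadjusted threshold, which 5 of the 8 members tested met, and 5.55% did not overlap. Hspa8 had 199, 221 and 470.5 CPM in food-deprived mice and 985, 446.5 and 528 CPM in normal mice (-1.14 ± 0.37), with 1 food-deprived mouse above the lowest normal one.

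A single barcode held most of the Dnajb1 UMIs in the ependymal class of 1 normal mouse. One ependymal barcode of normal replicate 3 held 142589 UMIs, 44.3% of the UMIs of its 34 ependymal cells, and the next largest of that mouse held 32630; whether it stands for 1 cell or several is not known. It contributed 283 of the 388 Dnajb1 UMIs of that mouse's ependymal cells, 862 of 1982 of Hsp90ab1 and 107 of 220 of Hsph1. Without cells of over 30000 UMIs, the log2 fold change was -1.64 ± 0.37 for Dnajb1, -1.28 ± 0.28 for Hsp90ab1 and -0.51 ± 0.21 for Hsph1. Then 6 of 7 members tested were below 0, with a median of -0.88, and still none was called (edgeR, lowest adjusted p 0.692). Without normal replicate 3 Dnajb1 was at -1.48 and Hspa8 at -0.71. Dropping the filter on low counts gave 5 calls (Dnajb1, Hsp90aa1, Hsp90ab1, Hspa8 and Hspb1; 0.14% of genes), and dropping it together with the large cells gave 4, without Hspa8 (0.0605%). The Hspb1 call rests on normal replicate 3: in Ependy it had 55.6, 30.6 and 0 CPM in food-deprived mice, against 622, 28.5 and 28.2 CPM in normal replicates 3 to 5, without TMM factors.

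**Figure D5:**
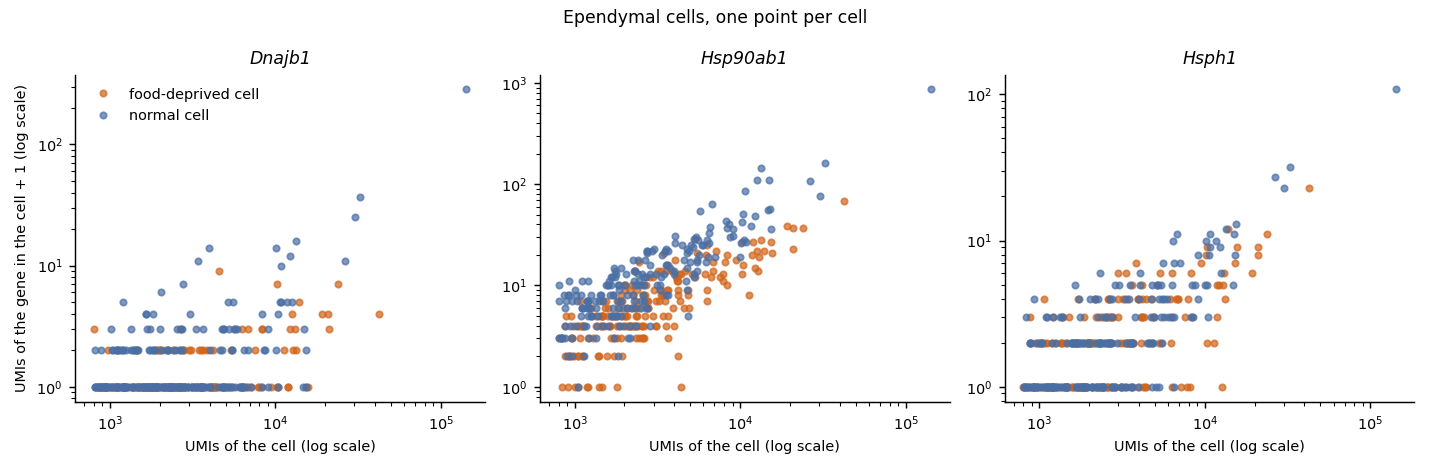
Each ependymal cell by its total UMIs and its UMIs of Dnajb1, Hsp90ab1 or Hsph1 plus 1, both on log axes, colored by feeding state. The point at the far right is the barcode of 142589 UMIs from normal replicate 3. Mice with under 20 ependymal cells are shown as well. With them, Hsp90ab1 summed per mouse was 1607 to 2536 CPM in food-deprived and 1804 to 6162 CPM in normal mice, without TMM factors. Whether cells of the feeding states differ at like depth was not tested.

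Other measures moved with the ependymal comparison. The summed ependymal markers were 11980 to 12270 CPM in food-deprived mice and 13180 to 14940 CPM in normal mice, without overlap. Astrocyte markers summed to 1815 to 2046 CPM in food-deprived and 1013 to 1872 CPM in normal mice, neuronal markers to 68.8 to 90.0 CPM in food-deprived and 43.5 to 194 CPM in normal mice, and none of the 4 genes of either list was at 0 except Tubb3 in food-deprived replicate 3. Ependymal cells averaged 5904, 4560 and 2498 UMIs in food-deprived mice and 9461, 5720 and 3009 UMIs in normal mice. Their part in the difference was not tested.

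In the remaining pairs under the unadjusted threshold, Hsp90ab1 and Hspa8 were lower. In IMO, Hsp90ab1 had 3071 and 3362 CPM in food-deprived mice, against 5017, 4584 and 4195.5 CPM in normal mice (log2 -0.52 ± 0.23). In Epith it had 2088, 1861 and 2224.5 CPM in food-deprived mice, against 3564, 2351 and 3448 CPM in normal mice (-0.60 ± 0.21). Neither pair of groups overlapped, which held for 10.5% of all genes in IMO and 4.95% in Epith. Blood markers in Epith summed to 0 to 3315 CPM in food-deprived and 468 to 9089 CPM in normal mice, with Hbb-b1, Hba-a1 and Hba-a2 at 0 in all of them, and their part was not tested. In MO, Hspa8 had 445, 457 and 700 CPM in food-deprived mice and 978, 1052, 555, 525 and 861 CPM in normal mice (-0.57 ± 0.26; 2.03% of genes lower at the threshold). The lowest 2 normal mice lie in batches 1 and 2, and with batch as a block the fold was -0.26 ± 0.16. All MO cells of the other 3 normal mice come from retained libraries, and in the mice with both types Hspa8 was 2.21, 1.85 and 2.35 times as high in retained as in depleted MO cells. The fold was -0.27 ± 0.22 with retained libraries alone and -0.15 ± 0.16 with depleted libraries alone and batch as a block. The part of library type in the MO values of Hspa8 was not tested.

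Related gene lists were compared in the same fits, and with feeding state as the only term edgeR called none of their genes. Of 26 other cytosolic chaperones and cochaperones, 20 were below 0 in all neurons (median -0.15) and 22 in GABA (median -0.18). In Ependy it was 21 of the 25 tested (median -0.34), 5 of them at an unadjusted p under 0.05. At that threshold 2.14% of all genes were lower in Ependy. Chordc1, an HSP90 cochaperone, had 72.8 ± 32.3 CPM in food-deprived and 158 ± 32.7 CPM in normal ependymal cells (SD, n = 3 each; log2 -1.12 ± 0.33). Stip1, which hands clients from HSP70 to HSP90, had 221 ± 36.5 CPM in food-deprived and 409 ± 212 CPM in normal ones (-0.89 ± 0.33). Cacybp had 195 ± 71.2 CPM in food-deprived and 371 ± 92.1 CPM in normal ones (-0.93 ± 0.30). All 8 TRiC subunits were below 0 in Ependy (median -0.52), 4 at an unadjusted p under 0.05, beside the same 2.14% of genes. Among these were Cct7 at -0.90 ± 0.24, Cct6a at -0.71 ± 0.24 and Cct3 at -0.63 ± 0.27. In OPC, 2 of 8 were below 0.

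Chaperones of other compartments were mixed. The mitochondrial partners Hspe1 (log2 -1.39 ± 0.34) and Hspd1 (-1.04 ± 0.33) were lower in food-deprived ependymal cells, while 3 of the 6 genes of that list were below 0 there and 2 of 6 in all neurons. Endoplasmic reticulum chaperones were below 0 for 13 of 14 in OPC (median -0.24), 6 at an unadjusted p under 0.05, beside 1.63% of all genes. Among the 6 were Hspa5, Manf (-0.68 ± 0.23) and Sdf2l1 (-0.69 ± 0.26). With batch as a block 2 of these 14 were called lower in OPC (edgeR, list median -0.45), beside 7 of all 9265 genes. Ubb, a ubiquitin gene, was at -0.53 ± 0.22 in Ependy, where 8 of 9 ubiquitin and proteasome genes were below 0 (median -0.14). Of the heat shock factors and their inhibitors, 4 of 4 tested were below 0 in all neurons (median -0.12) and 1 of 2 in Ependy. Immediate early genes, which dissociation also induces, were below 0 for 17 of 17 in Astro (median -0.52), with Klf4 at -1.44 ± 0.48, Fosb at -1.26 ± 0.42 and Klf6 at -1.09 ± 0.35. They were below 0 for 18 of 19 in all neurons (median -0.42). In MO it was 3 of 18 (median 0.13), in Tany 5 of 19 and in Micro 4 of 17. Of the members, 6 of 8 were below 0 in MO, 6 of 8 in Tany and 6 of 9 in Micro. Members above 0 were Hspa1a (0.03) and Dnajb1 (0.15) in MO and Hspa1a (0.24) and Hspb1 (0.01) in Tany. In Micro they were Hspa1a (0.16), Dnajb1 (0.21) and Dnaja1 (0.08). With batch as a block the medians of the immediate early genes were -0.30 in Astro, -0.09 in all neurons and 0.30 in MO. The part of these genes' setting in the members' values was not tested.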

How the data were processed

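The authors deposited unnormalized counts of UMIs for every gene in every barcode, 1 table for each of 17 libraries and a merged table. They also deposited 1 cluster name per cell. Counts rest on mm9, per the submitters' processing notes; how reads were aligned and counted is not given here. Of 14437 annotated cells, 161 had a barcode found in more than 1 library of their batch and state and were dropped.

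Counts were summed per mouse and class (at least 20 cells, 2 mice per state; clusters at least 5 cells). Food-deprived was compared with normal, two-sided, by edgeR 4.0.16 (R 4.3.3; quasi-likelihood F test, TMM, filterByExpr) with Benjamini-Hochberg adjustment within a class; SE comes from the F statistic. DESeq2 1.42.0 was an alternative. The code was tested on simulated data. Fold changes with SE are given where the unadjusted p was under 0.05 or the groups did not overlap; for other lists, at most 3 such genes in 1 class. Members and lists were chosen with earlier results of these data known. Leaving out the cells of over 30000 UMIs was chosen after seeing the data. Batches 1 and 2, per the labels, pair a mouse of each state; replicate numbers pair nothing. The labels give separate mice, so the p-values measure the spread between mice. With batch as a block only batches 1 and 2 set both states together. The p-values of those fits rest on few mice and on spread that edgeR shares over genes.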

Additional observations from a re-analysis of the deposited data

Results flagged for a closer look

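Hspb1 in all neurons stood apart in 1 normal mouse. Normal replicate 2 had 114.7 CPM, against 22.1 CPM in the next normal mouse and 6.28 CPM in the lowest, a gap of 0.854 of the range over 4 normal mice. The food-deprived mice had 10.2, 8.16 and 6.28 CPM. Among the 42 groups of 4 to 10 mice looked at it was the only one past Dixon's limit, and chance marks about 1 group in 20.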

How the results depend on the processing

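Of the 18 member and class pairs with an unadjusted p under 0.05 or no overlap, none turned its sign under another setting; 255 of their values stayed on the same side of the threshold and 11 passed it. Outside these pairs signs did turn, as for Hspa1a, which was at 0.46 in GABA (-0.55 with feeding state alone) and at 0.39 in Epith (-0.14) with the replicate block by batch. The count of called members, 0 in all classes, became 2 in GABA and 1 in MO, OPC, Astro and Epith with depleted libraries alone and a replicate block by batch. It became 1 in OPC with the replicate block by batch over all libraries, which pairs the mice of batches 1 and 2 and changed no other count. It became 1 in Astro and 5 in Ependy with no filter on low counts, and 4 in Ependy with no filter and without cells of over 30000 UMIs. Leaving out 1 mouse at a time gave 0 to 1 calls in IMO and 0 in the other classes. The cause was not tested. Shares of cells follow the depth they are thinned to. At 500 UMIs they were 26.0% for Hspa1a in Epith, 22.0% for Hsph1 and 76.6% for Hsp90aa1 in Ependy, 38.3% for Hspa8 and 24.3% for Dnaja1 in GABA, 82.8% for Hsp90ab1 in Glu and 48.3% for Hspb1 in Epith. With no thinning they were 33.6% for Dnajb1 and 65.1% for Hsph1 in Ependy, 87.2% for Hspa8 and 74.5% for Dnaja1 in GABA and 80.6% for Hspb1 in Epith. Precision is limited by 3 to 8 mice per class and, for Hspa1b and Hspb1, by few UMIs outside vascular and immune classes.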
